A study of Bos taurus with 8 samples.

Results

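Within the vehicle group of a study of BUTE cells, 4 libraries fall into 2 pairs: DMSO R7 and R9 on one side and DMSO R1 and R3 on the other. These are 4 of the 8 libraries of the series, and the 4 progesterone libraries (R1, R2, R3 and R6) serve here only as a reference. The pairs were chosen by measured expression across all genes, because R7 and R9 had been seen to stand apart from the other libraries of the series. No label distinguishes them, so every difference between the pairs is given as a description, with no test, and the cause was not tested.

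BUTE is an immortalized wild-type line made from the uterine epithelium of a Holstein cow, and all 8 libraries come from this 1 line. It was maintained in medium with serum, epidermal growth factor and oestradiol. For the experiment the cells were held for 24 h without serum or steroids, in the presence of insulin-like growth factor 1 (IGF1). All then received 50 ng/ml IGF1 for a further 24 h, with the solvent DMSO in the vehicle group and with 10 µM progesterone, the steroid hormone of the luteal phase, in the other. Messenger RNA was sequenced from stranded libraries. Library names are those of the deposited columns. Whether separate dishes stand behind the libraries of a group is not stated in the labels.

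Epithelial cells are held together by cadherins, tight junctions and desmosomes, carry keratin filaments and rest on a basement membrane of laminins and type IV collagen. Mesenchymal cells, such as fibroblasts, carry vimentin, often make N-cadherin in place of E-cadherin, and secrete fibronectin and fibrillar collagen. Cultured cells can express genes of both programmes, and the lining epithelium of the uterus, its stroma and the mesothelium that covers it share an origin in embryonic mesoderm. In the uterus, oestradiol and progesterone act through the receptors ESR1 and PGR, and GREB1, WNT4 and C3 are known as hormone-responsive genes there.

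Totals of estimated counts ran from 26697855 to 30299567 in the vehicle libraries and from 23810861 to 32509786 over all 8. A count was found for 17625 genes in R7 and 17532 in R9, against 16703 in R1, 16751 in R3 and 16545 to 16766 with progesterone. The label of epithelial cells was checked against defining markers over all 8 libraries. Keratin 8 (KRT8) lay between 1363 and 2739 CPM (counts scaled to the size of the library, with TMM factors) and E-cadherin (CDH1) between 10.3 and 23.1 CPM. The epithelial adhesion molecule EPCAM reached at most 2.49 CPM, claudin 3 (CLDN3) at most 0.240 CPM and the epithelial transcription factor GRHL2 at most 0.125 CPM. Vimentin (VIM), the filament protein of mesenchymal cells, lay between 5817 and 7458 CPM. Keratin 19 lay between 251 and 707 CPM. The markers therefore bear out the label only in part, in each of the pairs. Some of them differed between the pairs, among them EPCAM, KRT7, KRT18 and KRT19 (below). The libraries are called by their names here.

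Over the 12624 genes with a mean of at least 1 CPM in the vehicle libraries, R7 and R9 resembled each other closely and lay far from R1 and R3. R7 and R9 were at least 2-fold apart at 60 genes, and R1 and R3 at 161. A library of one pair and a library of the other were at least 2-fold apart at 1140 to 1284 genes. Progesterone libraries were that far apart from each other at 107 to 272 genes, from R1 or R3 at 181 to 419, and from R7 or R9 at 1230 to 1596. By these counts R1 and R3 sat with the progesterone libraries, and R7 and R9 sat apart from all 6. The filter used the DMSO libraries alone, so genes expressed only in R7 and R9 could pass. Genes expressed only with progesterone could not. This can raise the counts between progesterone libraries and R7 or R9 relative to those with R1 or R3.

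A gene is called separated here when each of R7 and R9 differed from each of R1 and R3 by at least 2-fold in 1 direction, on log2 CPM with a prior count of 2. This held for 517 genes that were higher in R7 and R9, 4.1% of those considered, and for 214 that were lower, 1.7%. At a 4-fold limit 238 genes (1.89%) were higher and 19 (0.151%) were lower, so the widest differences lay mostly on the higher side. The median log2 difference over all genes was -0.02. Of the 517 higher genes, 215 (41.6%) were under 1 CPM in both R1 and R3, and 155 were under 1 CPM in all of the other 6 libraries. Of the 214 lower genes, 27 (12.6%) were under 1 CPM in both R7 and R9, and the median lower gene kept 33.1% of its level in R1 and R3. Many higher genes were thus under 1 CPM in R1 and R3, while most lower genes were still expressed in R7 and R9. Genes under 1 CPM in both libraries of 1 pair passed the filter only through the other pair, which can raise both shares. Leaving out R3 raised the count of lower genes to 355, and leaving out R7 raised it to 360. In a lysate of many cells, more cells of a kind and more RNA per cell cannot be told apart.

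Of the marker genes handed down with the choice of libraries, 4 were higher in R7 and R9. PAX3 (Entrez Gene 540951, chromosome 2), a paired-box transcription factor of neural crest and muscle precursors, was at 49.8 CPM in R7 and 51.2 in R9, against 1.4 in R1 and 2.08 in R3. The ratio of the pair means was 29-fold, and the 4 ratios between single libraries ran from 23.9 to 36.5. LAMA4 (529670, chromosome 9), a laminin chain typical of vessel and muscle basement membranes, was at 45.5 and 48 CPM in R7 and R9, against 0.307 and 0.548 in R1 and R3. This was a 109-fold difference, with single ratios from 83.0 to 156. CDH2 (281062, chromosome 24), which encodes N-cadherin, was at 191 and 172 CPM against 12.5 and 14.2, a 13.6-fold difference (12.1 to 15.2). FN1 (280794, chromosome 2), fibronectin, was already abundant at 3638 and 3815 CPM in R1 and R3 and reached 13509 and 12826 CPM in R7 and R9, 3.53-fold higher (3.36 to 3.71). FN1 alone took 1.34% and 1.27% of all counts in R7 and R9, against 0.374% to 0.444% in the other 6 libraries.

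The other 4 markers were lower in R7 and R9. SMOC2 (615490, chromosome 9), a secreted calcium-binding matrix protein, was at 2.07 and 1.56 CPM in R7 and R9, against 50.2 and 30.4 in R1 and R3, 22.2-fold lower (14.7 to 32.2). GREB1 (508204, chromosome 11), a cofactor induced by oestrogen receptor, was at 6.57 and 6.09 CPM against 85.7 and 61.7, 11.6-fold lower (9.38 to 14.1). WNT4 (789600, chromosome 2), a ligand needed for development of the female tract, was at 3.40 and 3.42 CPM against 28.6 and 15.2, 6.43-fold lower (4.45 to 8.41). C3 (280677, chromosome 7), the central complement component, was at 63.9 and 66.8 CPM against 484 and 285, 5.89-fold lower (4.27 to 7.57). For these 4 genes R1 was above R3, and both lay well above R7 and R9.

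In the progesterone libraries R1, R2, R3 and R6, PAX3 was at 1.18, 1.72, 1.23 and 3.80 CPM and LAMA4 at 0.621, 0.761, 0.491 and 1.76. CDH2 was at 11.8, 16.8, 13.2 and 25.3 CPM and FN1 at 4484, 3828, 4313 and 3987. GREB1 was at 102, 72.6, 66.4 and 119 CPM and WNT4 at 86.1, 52.1, 85.1 and 94.3. For all of these, and for SMOC2 and C3, every progesterone library was nearer to R1 and R3 than to R7 and R9. Progesterone R6 was the highest of its group for PAX3, LAMA4 and CDH2.

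**Figure D1:**
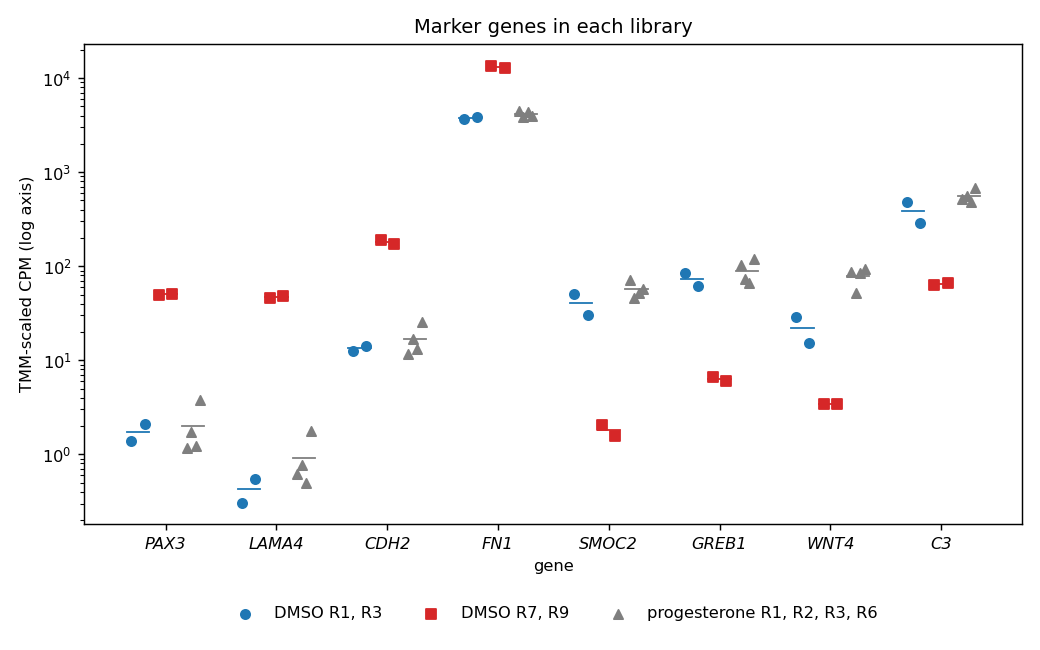
Each point is 1 library's TMM-scaled CPM (log axis) for the 8 marker genes, with a short line at the mean of DMSO R1 and R3 (circles), DMSO R7 and R9 (squares) and the 4 progesterone libraries (triangles). R7 and R9 lie above the other 6 libraries for PAX3, LAMA4, CDH2 and FN1 and below them for SMOC2, GREB1, WNT4 and C3.

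The 12 named genes with the widest gap on the higher side were all nearly silent in R1 and R3. MME, which encodes the surface peptidase CD10, had no counts in R1 and R3 and was at 7.54 and 8.95 CPM in R7 and R9, at least 77.8-fold higher against a floor of 3 counts per library. The glutamate receptor subunit GRIA3 was at 11.3 and 12.8 CPM, against 0 and 0.0365. FNDC1, a fibronectin-domain protein, was at 26.7 and 20.3 CPM in R7 and R9, 0.137 in R1 and 0 in R3. SULF2, a sulfatase that trims heparan sulfate outside the cell, was at 38.0 and 36.8 CPM against 0.581 and 0.438, 73.4-fold higher (63.4 to 86.6). SVEP1, a large adhesion protein of the matrix, was at 12.1 and 11.7 CPM against 0.171 and 0.0365. The group also held 2 transcription factors. TFAP2B, known from neural crest and kidney, was at 22.2 and 17.4 CPM against 0.171 and 0.329, and RUNX3 was at 7.87 and 6.72 CPM against 0.0683 and 0.110. PLA2G7, SIPA1L2, NREP and PARM1 completed the 12 together with LAMA4. For each of the 12, all 4 progesterone libraries were at or below 1.76 CPM.

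On the lower side, the widest gaps were found for genes with moderate expression in R1 and R3. CA9, a carbonic anhydrase known as a hypoxia marker, was at 2.10 and 3.05 CPM in R7 and R9, against 33.0 and 32.8 in R1 and R3, 12.8-fold lower (10.8 to 15.7). Transferrin (TF) was at 3.57 and 4.12 CPM against 45.3 and 28.5, and its relative MELTF at 2.20 and 2.79 against 34.5 and 19.9. HPSE, the heparanase that cleaves heparan sulfate, was at 5.04 and 4.38 CPM against 81.9 and 28.2. R1 and R3 differed from each other by more than 2-fold for HPSE, yet both stayed above R7 and R9. GREM1, a secreted antagonist of bone morphogenetic proteins (BMPs), was at 4.80 and 5.01 CPM against 38.0 and 23.7, 6.29-fold lower (4.73 to 7.91). ID1, a target of BMP signalling, was at 12.4 and 11.6 CPM against 49.4 and 52.1, 4.23-fold lower (3.99 to 4.49). TNFRSF8 and the coagulation inhibitor TFPI completed this set with SMOC2, GREB1, WNT4 and C3.

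**Figure D2:**
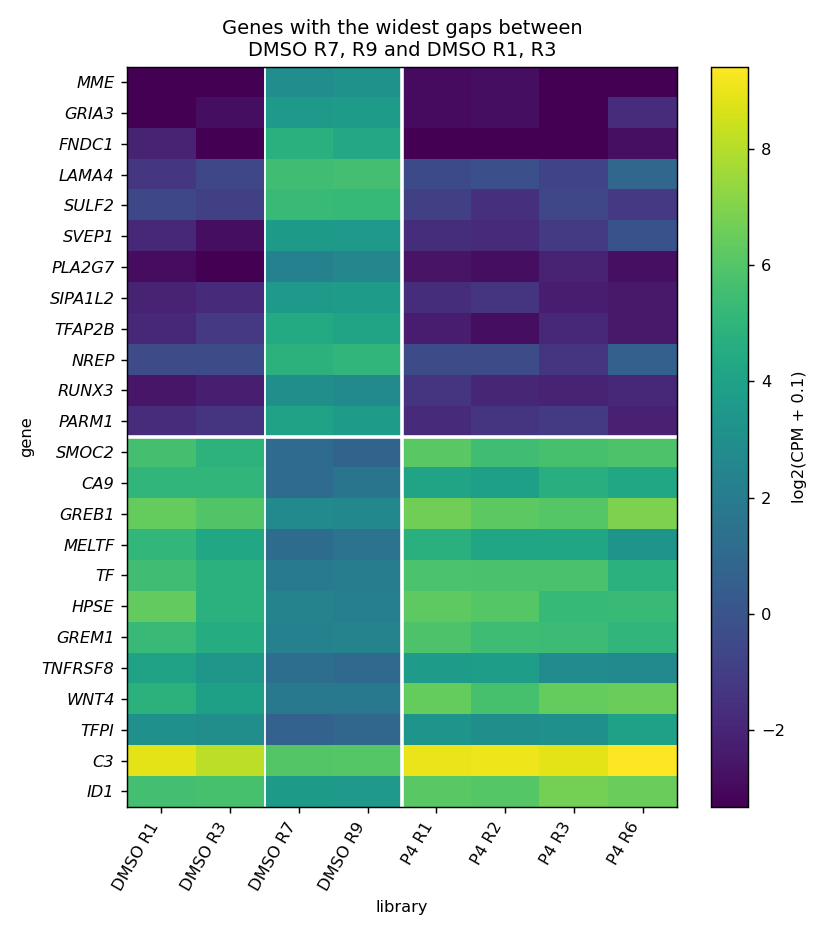
Colour gives log2(CPM + 0.1) of the 24 named genes with the widest gaps (rows: 12 higher above the white line, 12 lower below it) in the 8 libraries (columns; P4 is progesterone). The higher genes are dark in every library but DMSO R7 and R9, and the lower genes are darkest in those 2 libraries.

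Epithelial genes were separated in both directions. Of 28 listed, 13 passed the expression filter, with 2 higher and 3 lower in R7 and R9 (4.1% and 1.7% over all genes). The median log2 difference was -0.25. Keratin 7 (KRT7) was at 5.60 and 5.98 CPM against 35.3 and 21.8, 4.94-fold lower (3.65 to 6.31). Keratin 19 (KRT19) was at 251 and 253 CPM in R7 and R9, against 707 and 562 in R1 and R3, 2.52-fold lower. The epithelial transcription factor ELF3 was 3.44-fold lower. Keratin 18 (KRT18), by contrast, was at 5.77 and 6.80 CPM against 2.22 and 1.21, and EPCAM at 1.93 and 2.49 against 0.546 and 0.621. E-cadherin was not separated, at 10.8 and 10.3 CPM in R7 and R9 and 17.4 and 11.8 in R1 and R3.

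Of 19 mesenchymal genes that passed the filter, CDH2 and FN1 were higher and 0 were lower. Both are among the markers given with the choice of libraries, so they say nothing further about the list. The median log2 difference was 0.57, against within-pair medians of 0.11 (R1 minus R3) and 0.01 (R7 minus R9). Many others leaned the same way without reaching 2-fold between every library. In 13 of the 19, CDH2 and FN1 among them, both R7 and R9 lay above both R1 and R3, and in 4 below. Over all genes considered these shares were 34.1% above and 36.4% below. TWIST1, a transcription factor of mesenchymal cells, was at 15.3 and 11.5 CPM against 5.64 and 5.84, and ZEB1, a repressor of epithelial genes, at 46.4 and 43.5 against 25.4 and 22.9. PDGFRB, also taken as a mesenchymal marker, went the other way, at 2.17 and 3.90 CPM against 8.16 and 6.03. Vimentin overlapped between the pairs.

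Among 15 neural crest, paired-box and myogenic genes that passed the filter, 4 were higher and 0 lower (4.1% and 1.7% over all genes). Beside PAX3 and TFAP2B these were TFAP2C, at 2.77 and 2.49 CPM against 1.06 and 1.13, and the kidney and Müllerian duct factor PAX2, at 14.1 and 10.7 against 3.59 and 3.43. PAX3 is a marker given with the choice of libraries and says nothing further about the list. The median of this list was 0.12, below the 0.35 of R7 minus R9, so the separation lay in these few members. MYF5 and MYOG, which define committed muscle precursors, were at 0 in every library. Of 16 Müllerian and endometrial transcription factors, PAX2 and GATA4 were higher, the latter at 18.1 and 14.8 CPM against 2.70 and 2.12. The median was -0.34, and without overlap 9 of the 16 were lower in R7 and R9 and 4 higher. Over all genes 36.4% were lower and 34.1% higher without overlap. Among 29 HOX genes, which mark position along the body axis, HOXD13 was higher (2.13 and 2.27 CPM against 0.410 and 0.146) and none were lower by the 2-fold rule. Without overlap 18 were lower and 3 higher, to be set beside the same shares over all genes, and the median was -0.32. The median difference between R7 and R9 for the HOX genes was 0.24, nearly as large.

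Markers of other cell types did not move as blocks, except those of mesothelium. All 7 mesothelial markers that passed the filter were lower in R7 and R9 without overlap (36.4% over all genes), and 2 were separated (1.7% over all genes). The median was -0.98, with within-pair medians of 0.46 (R1 minus R3) and 0.03 (R7 minus R9). UPK3B was at 6.57 and 6.31 CPM in R7 and R9, against 20.9 and 7.78 in R1 and R3. Mesothelin (MSLN) was at 171 and 167 CPM against 647 and 454, 3.26-fold lower, and LRRN4 at 125 and 107 against 470 and 292, 3.28-fold lower. WT1, a transcription factor of mesothelium and uterine stroma, was at 98.5 and 93.1 CPM against 242 and 190. The summed level of the mesothelial list was 1074 to 1144 CPM in R7 and R9, 2218 to 2760 in R1 and R3, and 2314 to 2765 with progesterone.

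Stromal and fibroblast markers moved in different directions. Over all genes 4.1% were separated upward and 1.7% downward, the shares to set beside the counts of this paragraph. Of 14 that passed the filter, MME and collagen I (COL1A1) were higher, the latter at 6442 and 5199 CPM against 2047 and 1917, and the proteoglycan decorin (DCN) was lower, at 264 and 276 against 963 and 766. Summed levels of this list were 12700 to 13652 CPM in R7 and R9, 7107 to 7629 in R1 and R3 and 5721 to 6575 with progesterone, with IGF1 at 0 in every library. Of 11 smooth muscle markers 3 were higher: MYOCD, a coactivator of smooth muscle genes, at 5.84 and 5.01 CPM against 0.205 and 0.329, with ACTG2 5.57-fold and SYNPO2 3.41-fold higher. Their summed level was 4701 to 4762 CPM in R7 and R9, 3981 to 4048 in R1 and R3 and 3124 to 4074 with progesterone. Without overlap 6 of the 11 were higher and 3 lower (34.1% and 36.4% over all genes). The smooth muscle markers CNN1 (123 CPM in both R7 and R9 against 192 and 213) and ACTA2 (574 and 660 against 711 and 722) were lower. The smooth muscle myosin MYH11 was at most 0.175 CPM in any library.

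Endothelial, leukocyte and ciliated markers were low throughout. Only 2 of 13 endothelial genes passed the filter: FLT1, a receptor of vascular endothelial growth factor, was higher (8.21 and 7.09 CPM against 0.581 and 1.06) and VWF lower (1.63 and 1.56 against 3.59 and 4.27), while PECAM1 was at most 0.557 CPM. Their list summed to 12.5 to 12.8 CPM in R7 and R9, 5.67 to 7.23 in R1 and R3 and 5.68 to 8.53 with progesterone. Of 16 leukocyte genes 5 passed, CD14 was lower (3.87 and 3.08 CPM against 11.3 and 10.6) and PTPRC and MS4A1 were at 0 in every library. The leukocyte sums were 13.4 to 14.3 CPM in R7 and R9, 19.8 to 21.5 in R1 and R3 and 15.5 to 21.8 with progesterone. Of 12 ciliated-cell genes 4 passed, none was separated, and PIFO and SNTN were at 0 in every library. The ciliated sums were 17.3 to 17.5 CPM, 17.0 to 18.8 and 11.9 to 20.2 in the same order. The part of any admixed cell type in the separation was not tested.

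Matrix genes were separated in both directions, and as over all genes (517 higher and 214 lower) more of them upward. Of 40 matrix glycoproteins that passed the filter, 8 were higher and 2 lower (4.1% and 1.7% over all genes). Markers given with the choice of libraries, FN1 among them, are included in these counts. The median was 0.13, below the 0.24 of R1 minus R3. Thrombospondin 1 (THBS1), an adhesive protein that activates latent TGF-beta, was at 5676 and 5363 CPM against 839 and 985, 6.05-fold higher (5.44 to 6.77). SMOC1 was at 191 and 202 CPM against 24.0 and 21.1, 8.71-fold higher, opposite in direction to its paralogue SMOC2. The elastic fibre protein FBLN5 was at 16.6 and 14.8 CPM against 1.06 and 1.21, 13.9-fold higher.

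Of 26 collagen chains, 4 were higher and 1 lower (4.1% and 1.7% over all genes, here and for the lists that follow). Beside COL1A1, the network-forming COL8A1 was at 253 and 252 CPM against 99.4 and 95. The basement membrane chains COL4A4 and COL4A5 appeared at low level, COL4A4 at 2.97 and 2.86 CPM against 0.0342 and 0. COL18A1, the precursor of endostatin, was lower, at 15.8 and 11.9 CPM against 68.7 and 40.4. Proteoglycan and hyaluronan genes went both ways, with 4 higher and 3 lower of 18. The syndecan SDC2 was 13.0-fold higher (11.2 and 12.6 CPM against 0.956 and 0.877), the glypican GPC4 4.23-fold and the hyaluronan synthase HAS2 4.79-fold, while decorin and PRELP were 3.21-fold and 4.02-fold lower. Of 32 matrix proteases and inhibitors, ADAMTS12, the procollagen peptidase ADAMTS2 (48.1 and 45 CPM against 4.68 and 5.55) and the protease inhibitor SERPINE2 were higher, and MMP19 was 2.14-fold lower.

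Of 17 cadherins and protocadherins that passed the filter, 6 (35.3%) were higher and 0 lower, against 4.1% and 1.7% over all genes. The 6 include CDH2, a marker given with the choice of libraries, which says nothing further about the list. The giant cadherins FAT4 and DCHS1, a receptor and ligand pair of planar polarity, were at 67.9 and 57.8 CPM against 3.76 and 3.73 (16.8-fold higher) and at 22.2 and 17.5 CPM against 5.36 and 5.26 (3.74-fold). CDH13, a cadherin with a lipid anchor, was at 41.8 and 42.3 CPM against 4.00 and 4.27, 10.2-fold higher (9.78 to 10.6). Of 9 laminin chains LAMA4, also a given marker, and LAMA1 were higher. LAMA1, the alpha chain of early basement membranes, was at 254 and 262 CPM against 4.03 and 8.25, 42.0-fold higher (30.7 to 65.0).

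Of 16 integrin chains, the receptors that bind these matrix proteins, none was separated; ITGA2 was at 15.4 and 17.0 CPM against 8.85 and 5.66, and ITGA7 at 16.1 and 17.0 against 34.5 and 27.5. Tight junction genes went both ways, with 2 higher and 2 lower of 14. Over all genes 4.1% were higher and 1.7% lower, which holds for each list of this paragraph. Claudin 1 (CLDN1) was at 48.6 and 44.6 CPM against 311 and 155, 4.99-fold lower (3.19 to 6.96), and CLDN15 was 3.81-fold lower, while JAM3 (14.5 and 15.5 CPM against 1.88 and 2.63) and CGNL1 were higher. The desmosomal cadherins DSC3 (3.40 and 4.61 CPM against 0.0683 and 0.0730) and DSC2 (34.0 and 34.4 against 10.5 and 13.5) were higher, 2 of 16 desmosome and hemidesmosome genes. Among 24 adhesion genes of the immunoglobulin and neural type, 6 were higher and 1 lower. NCAM1 was at 183 and 181 CPM against 32.4 and 32.1, 5.65-fold higher (5.59 to 5.71). The axon guidance receptors ROBO1 and NRP1 were 6.33-fold and 4.43-fold higher, and CADM1 and CHL1 8.38-fold and 8.5-fold.

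Of 16 genes of the oestrogen and endometrial list that passed the filter, 12 were not separated. GREB1, WNT4 and C3 were lower, and all 3 are among the markers given with the choice of libraries, so they say nothing further about the list. The cytokine receptor LIFR was higher (3.87 and 3.38 CPM against 0.717 and 0.730). The median was -0.55, with 9 lower and 4 higher without overlap (36.4% and 34.1% over all genes). Both receptors, named after their values were seen, were lower without overlap. ESR1 was at 18.2 and 17.9 CPM against 42.6 and 33.9, 2.12-fold lower, and PGR at 8.47 and 7.13 against 13.2 and 11.9, 1.61-fold lower. ESR1 missed the 2-fold rule in at least 1 pair of libraries, since the smallest of the 4 ratios was 1.87.

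Of 14 complement genes that passed the filter 5 were separated downward (35.7%), the marker C3 among them, 0 upward, and 9 were not separated. Over all genes 1.7% were separated downward and 4.1% upward. The median was -0.42, with 10 lower and 4 higher without overlap (36.4% and 34.1% over all genes). Beside C3, C2 was at 2.70 and 2.64 CPM against 17.1 and 10.3, and CFB at 9.04 and 9.32 against 32.2 and 25.7, 3.16-fold lower. The proteases C1R and C1S of the classical pathway were 3.80-fold and 3.02-fold lower. For C2 and CFB the progesterone libraries lay even higher than R1 and R3, at 24.4 to 42.3 and 66.7 to 146 CPM.

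Of 28 interferon-stimulated genes 5 were separated upward, 0 downward and 23 not at all (4.1% upward and 1.7% downward over all genes). The median was 0.21, with 17 higher and 4 lower without overlap (34.1% and 36.4% over all genes). The antiviral GTPase MX1 was at 17.2 and 21.8 CPM against 2.19 and 1.02, 12.2-fold higher (7.89 to 21.4), and the ubiquitin-like modifier ISG15 at 5.67 and 7.65 against 1.2 and 0.913. Of 15 chemokines and cytokines 4 were separated upward and 11 were not separated, with 9 higher and 3 lower without overlap. The same shares over all genes apply to these counts. Among the 4 were CCL2, which draws in monocytes, at 27.9 and 27.2 CPM against 4.99 and 5.15, and the interleukin 1 antagonist IL1RN at 9.54 and 10.8 against 1.4 and 1.24. CCL2 also reached 22.8 CPM in progesterone R6, against 3.48 to 8.10 in the other progesterone libraries. The median deviation of the cytokine list from the mean of R1 and R3 was 0.27 and 0.33 in R7 and R9, 0.49 and 0.45 in progesterone R3 and R6, and -0.07 and 0.11 in progesterone R1 and R2, on the log2 scale.

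The WNT and TGF-beta lists had medians near 0 whose sign changed with the scaling, and both held members in either direction. Shares over all genes were 4.1% separated upward and 1.7% downward. Of 33 WNT genes, the nuclear effector LEF1 (7.34 and 3.90 CPM against 0.205 and 0.219), the antagonist SFRP4 and the antagonist DKK2 were higher. The ligand WNT4, a marker given with the choice of libraries, was lower. DKK2 was at 142 and 134 CPM against 20.9 and 37.3, 4.75-fold higher, and at only 7.82 to 11.4 CPM with progesterone. Of 35 genes of the TGF-beta, activin and BMP list 3 were higher and 5 lower. The activin subunits INHBA and INHBB were 7.43-fold and 4.41-fold higher, INHBA at 62.7 and 67.6 CPM against 6.25 and 11.3, and the ligand BMP6 was at 2.00 and 2.19 CPM against 0.102 and 0.110. Of 23 targets of YAP and TEAD, transcription regulators that respond to cell density and stretch, 3 were higher and 0 lower: NT5E, F3 and CYR61, the last at 1182 and 994 CPM against 418 and 489.

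No cell cycle gene on the lists was separated 2-fold. All 41 genes of DNA replication and S phase passed the filter and none was separated. Without overlap 34 were nevertheless lower in R7 and R9 and 3 higher (36.4% and 34.1% over all genes). The median was -0.35, with within-pair medians of 0.00 and -0.03. PCNA, the sliding clamp of DNA polymerase, was at 81.2 and 91.8 CPM against 170 and 176 in R1 and R3, 2.00-fold lower. The summed level of the list was 3859 and 3872 CPM in R7 and R9, 5062 and 4920 in R1 and R3, and 4252 to 4866 with progesterone. Of 44 genes of mitosis, 15 were lower and 10 higher without overlap (36.4% and 34.1% over all genes), so the lower count was near the background, and the median was -0.03. CDC25B, a phosphatase that starts mitosis, was at 129 and 129 CPM against 203 and 229. Of 29 cyclins, inhibitors and p53 targets none was separated, with a median of -0.08.

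Central metabolism was separated at few genes. None of 27 tricarboxylic acid cycle genes, 65 respiratory chain genes, 26 genes of fatty acid oxidation, 18 of glycogen, 36 of glutathione and peroxide defence or 7 of the pentose phosphate pathway was separated. Medians were -0.03, -0.08, -0.21, -0.10, -0.14 and -0.14 in that order. For R1 minus R3 they were -0.12, -0.19, 0.003, -0.07, -0.06 and -0.19. The tricarboxylic acid, respiratory chain and pentose phosphate lists thus differed more between R1 and R3 than between the pairs. Of 27 glycolytic genes only the glucose transporter SLC2A3 was separated, at 329 and 310 CPM against 50.7 and 104, 4.12-fold higher (2.97 to 6.49). For this list the difference between R1 and R3, a median of -0.33, exceeded that between the pairs, -0.10. The hypoxia list behaved alike, with medians of -0.35 within R1 and R3 and -0.05 between the pairs, and with CA9 and EGLN3 lower, the latter at 8.41 and 8.73 CPM against 23.0 and 32.4.

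Single metabolic genes were separated elsewhere. The stearoyl-CoA desaturase SCD5 was 2.40-fold higher (20.3 and 19 CPM against 9.26 and 7.09), the only one of 25 genes on the list for fatty acids and triglycerides. TM7SF2, a sterol reductase, was 2.23-fold lower (21.7 and 22.0 CPM against 48.3 and 49.1), the only one of 25 cholesterol genes. Serine, glycine, proline and asparagine synthesis had the highest median among the metabolic lists, 0.48. Without overlap 18 of its 27 genes were higher and 7 lower (34.1% and 36.4% over all genes). Its separated member was SLC7A11, the cystine importer, at 25.2 and 20.7 CPM against 5.70 and 8.11, 3.32-fold higher. DHRS3, a retinal reductase, was 3.09-fold lower, 1 of 17 genes of retinoid and aldehyde metabolism.

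Lists that can follow RNA quality or stress were read beside these groups. No ribosomal protein gene of 75 was separated, and the median was -0.21. Without overlap 49 were lower and 5 higher (36.4% and 34.1% over all genes). Their summed level was 30608 and 31990 CPM in R7 and R9, 35455 and 36816 in R1 and R3, and 38660 to 51207 with progesterone. None of 20 immediate early genes or 27 heat shock and unfolded protein genes was separated, with medians of 0.08 and 0.19. The part of these levels in the separation was not tested.

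**Figure D3:**
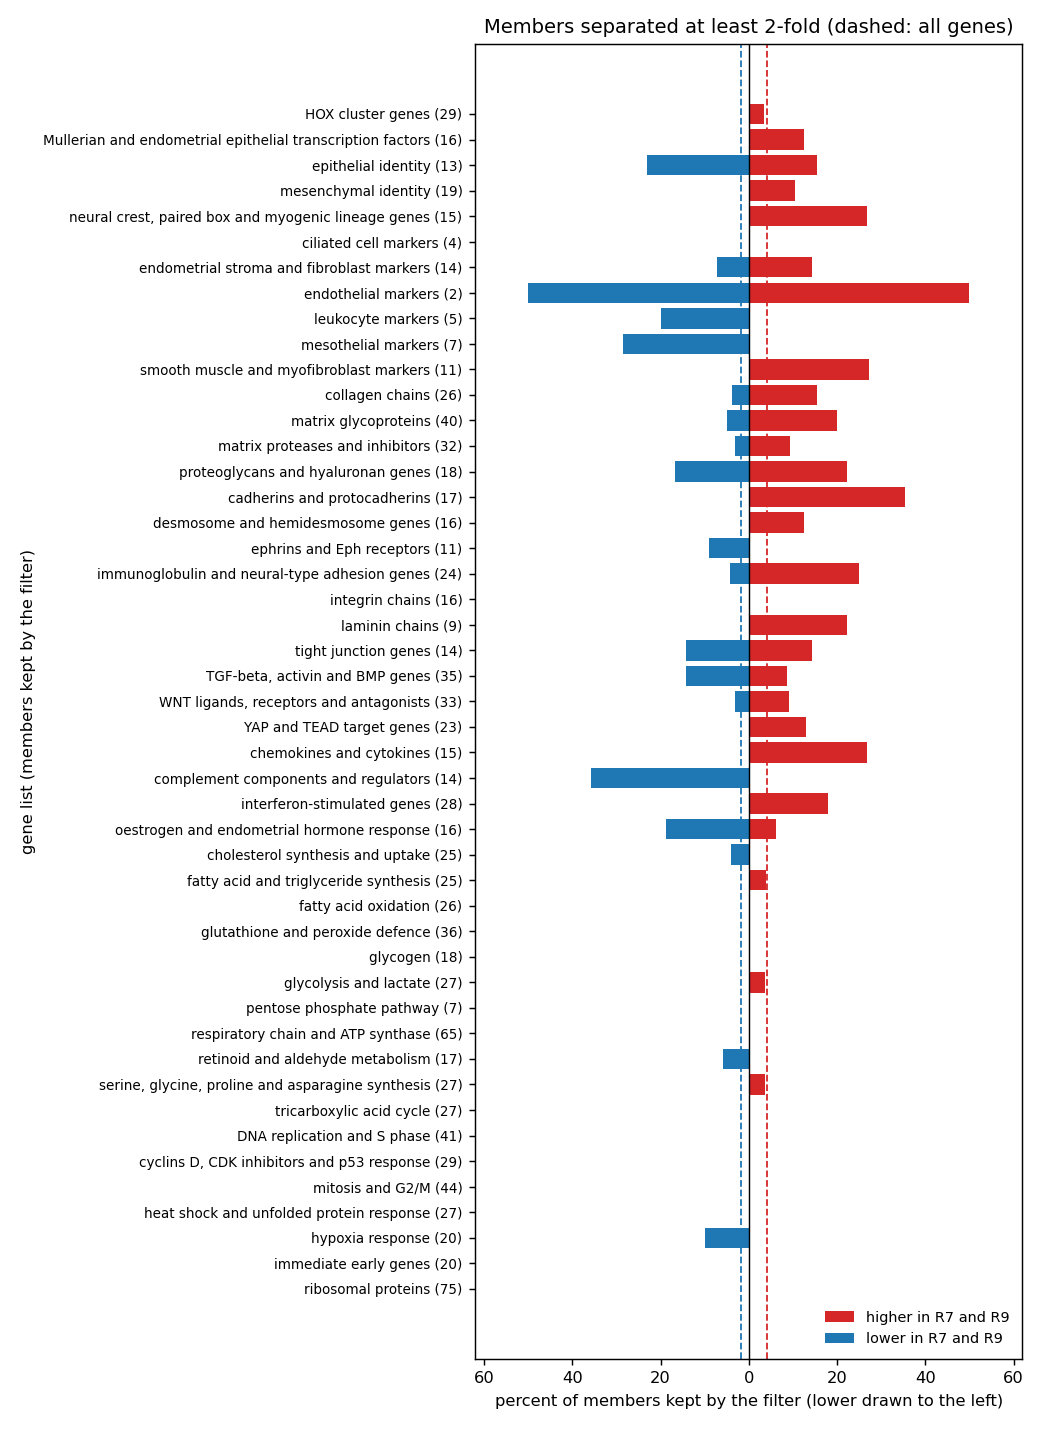
Bars give the percent of each list's members kept by the filter (number in brackets) that were at least 2-fold higher (right) or lower (left) in DMSO R7 and R9 than in R1 and R3, and dashed lines give 4.1% and 1.7% for all genes. Cadherins stand at 35.3% higher with none lower and complement genes at 35.7% lower with none higher, while the cell cycle lists are empty and the metabolic lists nearly so. The cadherin bar counts the given marker CDH2 and the complement bar the given marker C3.

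Genes on the X chromosome and on unplaced scaffolds were separated upward more often than autosomal genes. On the X chromosome 48 of 459 genes (10.5%) were higher, on the autosomes 439 of 12087 (3.63%), and on unplaced scaffolds 30 of 78 (38.5%). Genes described as MAGE or melanoma-associated antigens, many of them normally expressed in the germ line, were looked at after this was seen and are called MAGE genes here. They also hold broadly expressed members that were not separated, such as MAGED1 at 321 and 330 CPM against 284 and 251, and MUM1, included by its description. Of 90 such genes 44 passed the filter. Of these, 28 (63.6%) were higher and 0 lower, and the 28 supplied 19 of the 30 unplaced and 8 of the 48 X-linked genes. The filter takes the mean of all 4 DMSO libraries, so genes nearly silent in R1 and R3 passed only through R7 and R9. MAGEB4, at 2.33 and 2.45 CPM against 0.0683 and 0.219, is an example. This can raise the MAGE, X-linked and unplaced shares. MAGEB1 was at 26.7 and 27.6 CPM against 0.820 and 0.877, 32.0-fold higher (30.5 to 33.6). Near-identical copies make single MAGE values uncertain, so the genes described as MAGE B were also summed: 393 and 416 CPM in R7 and R9, 80.1 and 93.1 in R1 and R3, and 66.0 to 85.2 with progesterone. Of 2 long noncoding RNAs chosen after their values were seen, XIST, which coats the inactive X chromosome, was at 145 and 137 CPM against 403 and 282, 2.43-fold lower, and at 243 to 537 with progesterone. H19, an imprinted RNA, was at 469 and 478 CPM against 1834 and 3444.

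Whole chromosomes differed in their median. The median log2 difference was -0.29 on chromosome 8, -0.28 on chromosome 16 and -0.22 on chromosome 12, and it was 0.17 on chromosome 21, 0.16 on chromosome 20 and 0.14 on chromosome 1. On chromosome 8, 76.5% of 405 genes were lower on average in R7 and R9. Within pairs, chromosome medians stayed between -0.05 and 0.05, and those of the progesterone libraries against R1 and R3 between -0.01 and 0.06. The shift was shared along some chromosomes. With genes put in the order of the RefSeq annotation, 245 blocks of about 50 neighbours were formed. Of these, all 8 blocks of chromosome 8 were negative, as were all 7 of chromosome 4, all 4 of chromosome 12, all 9 of chromosome 13, all 9 of chromosome 25 and all 3 of chromosome 28, while none was negative on chromosomes 20, 21 and 24. Chromosome 16 was uneven, with 0.12 in its first block, -0.56 in block 4 and negative medians in the other 5. Block medians ran from -0.56 to 0.31 between the pairs, from -0.13 to 0.15 between R1 and R3, from -0.15 to 0.14 between R7 and R9, and from -0.14 to 0.11 for progesterone against R1 and R3. For chromosomes 1, 8, 12, 16, 20 and 21, the sign of the whole-chromosome median held under each scaling tried. Block medians were not recomputed under other scalings.

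**Figure D4:**
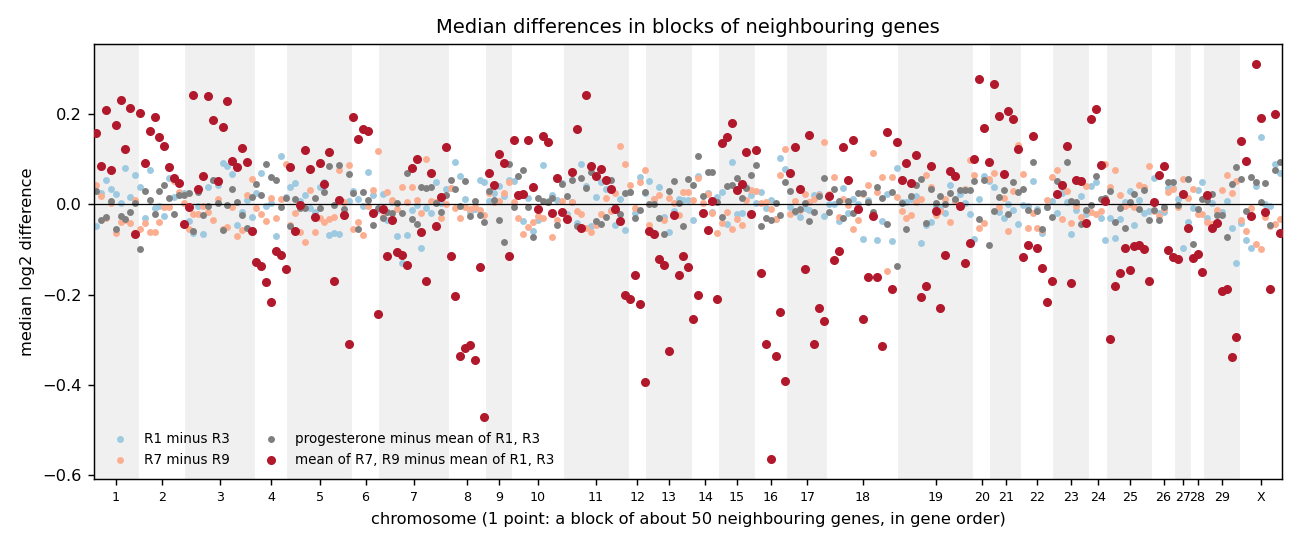
Each point is the median log2 difference over a block of about 50 neighbouring genes, with blocks in gene order along chromosomes 1 to 29 and X. The large dark points (mean of DMSO R7 and R9 minus mean of R1 and R3) run below 0 along chromosomes 4, 8, 12, 13 and 25 and down to -0.56 on chromosome 16, while the small points (R1 minus R3, R7 minus R9, progesterone minus R1 and R3) stay between -0.15 and 0.15.

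Gene span and expression level also went with separation. With genes ranked by their span on the genome and cut into 4 equal bins, 7.25% were higher in R7 and R9 in the bin of the longest, against 2.51% and 2.48% in the middle bins and 4.25% in that of the shortest. The median log2 difference ran from -0.09 for the shortest to 0.08 for the longest, and the median difference between R1 and R3 from -0.06 to 0.09 over the same bins. With genes ranked by mean expression, 12.1% were higher and 3.74% lower in the lowest of 4 bins, against 0.919% and 0.539% in the highest.

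The progesterone libraries were then placed between the pairs. For each of the 731 separated genes, the position of a library was set to 0 at the mean of R1 and R3 and to 1 at the mean of R7 and R9, on log2 CPM. Median positions were -0.02, 0.05, 0.01 and 0.07 for progesterone R1, R2, R3 and R6. These libraries were nearer to R7 and R9 at 27, 37, 27 and 61 of the 731 genes. At 623 genes no progesterone library was nearer to R7 and R9. R6 stood somewhat further out than the others, with a median of 0.11 over the genes higher in R7 and R9 and -0.02 over those lower.

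At 4 genes, singled out after their values were seen, all 4 progesterone libraries were nearer to R7 and R9. SERPINE2, a secreted protease inhibitor, was at 155 CPM in both R7 and R9, at 64.6 and 65.7 in R1 and R3, and at 130, 107, 142 and 236 with progesterone. ACHE, acetylcholinesterase, was at 8.01 and 6.94 CPM, 2.97 and 3.32, and 6.98, 7.61, 9.01 and 5.35. The potassium channel subunit KCNG1 was higher in the same libraries, and the cardiac actin ACTC1 was lower, at 4.60 and 4.08 CPM, 11.7 and 15.2, and 3.68 to 7.26 with progesterone.

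**Figure D5:**
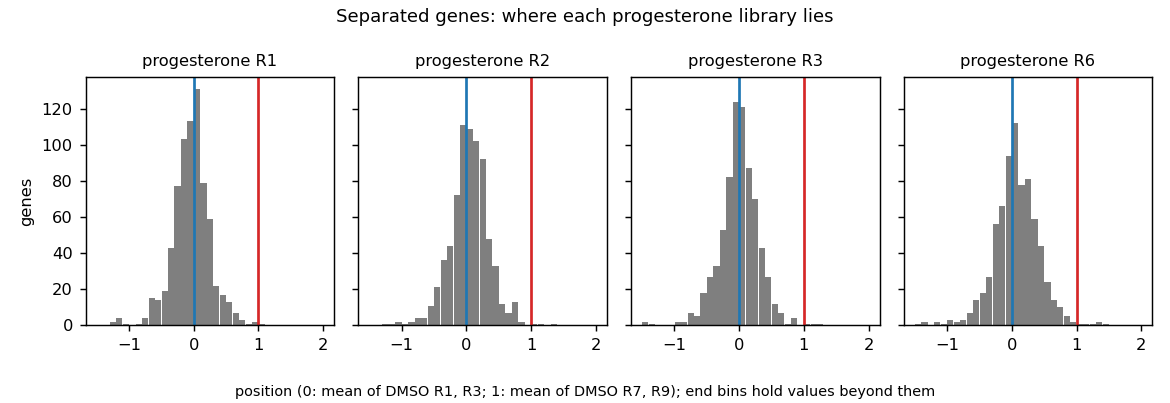
Histograms count the 731 separated genes by the position of each progesterone library, where 0 (left line) is the mean of DMSO R1 and R3 and 1 (right line) that of DMSO R7 and R9. All 4 distributions centre near 0, with medians between -0.02 and 0.07.

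The labelled groups were compared by edgeR's quasi-likelihood test over all 8 libraries, to set the study's own contrast beside the values above. Of 13557 genes 229 (1.69%) were higher and 130 (0.959%) lower with progesterone at an adjusted p under 0.05. None of the 8 markers passed in edgeR. Without adjustment p was under 0.05 for 5 of them, and 4 were called by DESeq2 and 1 by limma voom. WNT4 came nearest, at 12.7 ± 12 CPM with DMSO and 79.4 ± 18.7 with progesterone (mean ± SD, n = 4 each), with a log2 fold change of 2.63 ± 0.68 (SE) and an edgeR adjusted p of 0.0747. For PAX3 the DMSO mean was 26.1 ± 28.1 CPM, an SD larger than the mean, and the log2 fold change was -3.77 (edgeR adjusted p = 0.114). LAMA4 and CDH2 had log2 fold changes of -4.76 and -2.58, with edgeR adjusted p of 0.117 and 0.137.

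Leaving out R7 and R9 turned the sign for PAX3 to 0.17, for LAMA4 to 1.06, for CDH2 to 0.32 and for FN1 to 0.15 on the log2 scale, none of which passed (edgeR adjusted p between 0.415 and 0.905). WNT4 was then 1.85 ± 0.32 (SE) higher on the log2 scale and passed (edgeR adjusted p = 0.0481). Across the 17 alternatives that kept R1 or R3, the adjusted p ran from 0.00755 to 0.227 for WNT4. With R7 and R9 left out, 162 of 13764 genes were called. These fits share libraries with each other and with the description of the pairs, so their values are given side by side only.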

How the data were processed

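RNA was measured in 8 libraries of BUTE cells, 4 per group. The authors deposited 1 table of estimated counts for 28709 genes. Salmon 1.4.0, bcl2fastq and the build ARS-UCD1.2 are named, without roles, in the submitters' processing notes. The table's title mentions length normalization, whose method is not stated. Reads shared by near-identical copies are split by a model. Column names give the group but not the sample, so their numbers pair nothing.

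The libraries, the gene lists and the markers were chosen with earlier results of these data known. Estimated counts were rounded to whole numbers and scaled by TMM (edgeR 4.0.16, R 4.3.3, limma 3.58.1). Log2 CPM used a prior count of 2. Genes with a mean of at least 1 CPM over the 4 DMSO libraries were kept (12624). A fold is the ratio of pair means of CPM, with the lowest and highest of the 4 ratios between libraries, and is left out where a pair held 3 counts or fewer, except against no counts. List members are described by number separated, number without overlap and median. Named genes were the markers, the 12 widest gaps in each direction among genes of at least 5 CPM in the higher pair and without a placeholder symbol, and up to 5 separated members of each list. Where fewer than 2 members of a list were separated, the 2 with the largest difference were added. Gene order, span and synonyms come from RefSeq (ARS-UCD2.0), which differs from the build named in the notes, so no coordinates are given. Listed genes not matched, such as PAX7, MMP10, H6PD and IFIT1, are not analysed here. One gene that the rule names is not reported here.

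Progesterone was compared with DMSO by edgeR's robust quasi-likelihood test (two-sided, filterByExpr, Benjamini-Hochberg, 0.05), with DESeq2 1.42.0 and voom as alternatives. The p-values measure only the spread between these libraries, which may be technical. The scripts were tested on simulated data. Alternatives covered scaling, rounding, prior count, filter, fold limit and leaving out libraries.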

Additional observations from a re-analysis of the deposited data

Results flagged for a closer look

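Among the named genes, the 4 DMSO and the 4 progesterone libraries were each searched for a library far from the other 3, by Dixon's criterion (a gap over 0.829 of the range). Of 300 groups examined, DMSO and progesterone together, 9 met it. All 9 lay in the progesterone group, whose libraries serve as reference here. Most named genes were chosen for a wide gap between the DMSO pairs, which leaves a single DMSO library hardly able to meet the criterion. The lack of DMSO flags was thus largely fixed in advance. For the same reason 9 of 300 cannot be set against the chance rate of about 1 in 20 groups. Progesterone R6 was high for FOS (86.3 CPM), NRP1 (23.4 CPM), DCHS1 (9.95 CPM) and FNDC1 (0.0418 CPM, the others at 0), and low for TF (28.4 CPM). Progesterone R2 was high for F3 (7.17 CPM) and MYOCD (0.601 CPM). Progesterone R1 was low for NCAM1 (36.9 CPM) and high for COL4A4 (0.0310 CPM, the others at 0). For NRP1, DCHS1, MYOCD, F3, NCAM1, FNDC1 and COL4A4 even these libraries were nearer to DMSO R1 and R3 than to R7 and R9.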

How the results depend on the processing

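The counts of separated genes followed the filter and the fold limit. With no filter 1100 genes were higher and 334 lower in R7 and R9, with a mean of at least 5 CPM 232 and 137, at 4-fold 238 and 19, and at 1.5-fold 893 and 701. Leaving out 1 DMSO library gave 538 to 705 higher and 276 to 360 lower, with fewer libraries to satisfy. Other scalings, unrounded counts and a prior count of 0.5 gave 493 to 532 higher and 205 to 241 lower. Leaving out 1 DMSO library, median positions ran from 0.048 to 0.094 for progesterone R2, from -0.0026 to 0.081 for R3 and from 0.057 to 0.11 for R6.

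The progesterone comparison depended on the libraries. Against 359 calls, DESeq2 gave 1900, a threshold of 0.01 gave 27, leaving out R7 and R9 together 162 and leaving out R1 and R3 together 6169. The last contrasts libraries chosen on these values and is not read as a result. Leaving out 1 library gave 42 to 1782 calls: 1782 without DMSO R1, 795 without R3, 51 without R7 and 82 without R9. Higher calls were 63.8% in the main fit, 54.0% with library sizes alone and 47.3% with DESeq2. Without R7 and R9, log2 fold changes reversed to 0.17 for PAX3, 1.06 for LAMA4, 0.32 for CDH2, 0.15 for FN1 and -0.013 for ESR1. Without R1 and R3 they reversed to -0.036 for SERPINE2, -0.064 for ACHE and 0.45 for ACTC1, while KCNG1 kept its sign, at 0.20 against 0.73. These genes were singled out for progesterone values near R7 and R9, so such values were largely set in advance. The causes were not tested, beyond the libraries left out.

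With a replicate block by column number, 2531 genes were called, and LAMA4 (0.39), FN1 (0.23) and XIST (-0.41) reversed. Only numbers 1 and 3 occur in both groups, so the block sets R7 and R9 aside, and no label says that a number pairs libraries. Depth limits genes far under 1 CPM, where a few counts can decide a ratio.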
